A study of Mus musculus with 6 samples.

Results

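The genes described here make, carry and break down retinoic acid, the active form of vitamin A. They are Aldh1a1, Aldh1a2, Aldh1a3 and Rdh9 on the side of synthesis, Cyp26a1 and Cyp26b1 on the side of breakdown, and Rbp4, Crabp2 and Stra6 as carriers. Every probe set whose platform annotation gave exactly 1 gene symbol equal to one of these 9 names was taken, whatever its values. This gave 9 probe sets of the 41420 on the array, for 8 of the 9 genes (16813 genes were measured in all): Aldh1a3 had 2, the other 7 measured genes had 1 each, and Aldh1a1 was not analysed here. The values come from uteri collected from intact mice aged 2 weeks, hybridised to Affymetrix expression arrays, with 3 arrays labelled Arid1a d/d and 3 labelled Arid1a f/f. The Arid1a protein binds DNA and belongs to the chromatin remodelling complex called SWI/SNF. By convention d marks a deleted and f a floxed allele, so the f/f mice carry the floxed gene on both chromosomes and are not plain wild type. The Cre driver, the deleted part of the gene and whether each array is 1 animal are not given in the sources used here, and p-values therefore measure the spread between these arrays, which may be partly technical. The study's title is about how endometrial glands form, and the question here is which retinoid transcripts differed by genotype at this age.

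Retinol reaches tissues bound to the plasma carrier Rbp4 and can enter cells through its receptor Stra6. Retinol dehydrogenases turn it into retinal, and the retinal dehydrogenases of the Aldh1a family turn retinal into retinoic acid. Crabp2 hands retinoic acid to nuclear receptors of the Rar family, which pair with Rxr receptors and act on target genes, and the Cyp26 enzymes oxidise it for removal. In the mouse, retinoic acid in the stroma of the Müllerian duct takes part in setting the uterine identity of that tissue, and Cyp26a1 is known in the uterine epithelium of early pregnancy.

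Rar and Rxr receptors bind pairs of a 6-base motif in the same orientation, and Cyp26a1 and the receptor gene Rarb are textbook targets whose promoters hold such a pair with a spacer of 5 bases. Both promoters are shown because both genes were measured here and their values are set side by side further on. The 250 bases before the transcript start are given 5′ to 3′ on the strand of the gene, from RefSeq (GRCm38.p6), with the 2 motif copies in capitals. The Cyp26a1 stretch is chr19:37697558-37697807 on the plus strand, and the Rarb stretch is chr14:16575477-16575726 on the minus strand.

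Cyp26a1: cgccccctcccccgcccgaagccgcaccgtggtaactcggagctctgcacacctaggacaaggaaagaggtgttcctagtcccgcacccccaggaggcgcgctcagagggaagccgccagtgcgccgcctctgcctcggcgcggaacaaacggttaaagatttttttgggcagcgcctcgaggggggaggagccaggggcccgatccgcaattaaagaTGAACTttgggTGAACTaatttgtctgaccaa

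Rarb: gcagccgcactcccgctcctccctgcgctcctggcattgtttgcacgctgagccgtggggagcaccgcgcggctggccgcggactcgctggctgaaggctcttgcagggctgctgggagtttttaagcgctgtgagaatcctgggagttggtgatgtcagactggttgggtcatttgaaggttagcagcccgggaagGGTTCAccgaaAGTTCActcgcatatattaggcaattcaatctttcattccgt

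The motif had 4 accepted forms, which were AGGTCA (the textbook consensus), AGTTCA (both copies in Cyp26a1 and the second in Rarb), GGTTCA (the first copy in Rarb) and GGGTCA (a further form of the consensus). A pair was any of these followed, after a spacer of 1, 2 or 5 bases of any kind, by any of the same 4, on both strands of windows of 300 bases (250 before the start and 50 after it). In Cyp26a1 the pair with 5 bases between lies on the strand opposite to the gene, from 32 to 16 bases before the start, as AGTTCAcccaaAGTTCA. In Rarb it lies on the strand of the gene, from 53 to 37 bases before the start, as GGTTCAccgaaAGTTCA. A pair with this spacer was found in 32 of 32851 windows of the RefSeq table (0.0974%), with spacer 1 in 73 (0.222%) and with spacer 2 in 88 (0.268%). The table holds 12 windows for 7 of the 9 genes, and the 1 in Cyp26a1 was the only match among them at any of these spacers. The accepted forms and the spacer of 5 include those of Cyp26a1 and Rarb, so the matches in these promoters were fixed in advance. The shares over all windows are therefore no measure of how unusual they are. A match describes the letters and does not show that a receptor binds there.

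The arrays were close to one another, with correlations between 0.987 and 0.995 over all probe sets and array medians between 6.34 and 6.59 on the linear intensity scale. On the first principal component, which held 42.6% of the variance, d/d 1 at -11.9 lay within the range of the f/f arrays (-29.4 to -6.95), while d/d 2 stood at 37.2 and d/d 3 at 28.8. Results are therefore given with and without single arrays where a call depends on them. Arid1a measured 6.98, 7.06 and 7.04 in d/d 1, 2 and 3, against 7.54, 7.58 and 7.71 in f/f 1, 2 and 3 (log2 intensity; log2 difference -0.58 ± 0.09 SE; limma adjusted p = 0.0342). Among markers of the labelled tissue, Hoxa10 and Hoxa11, transcription factors of the uterine stroma, averaged 9.19 and 7.13 in d/d and 9.37 and 7.55 in f/f uteri. Levels below are log2 intensities, and every difference is d/d minus f/f on that scale, with the limma p adjusted over all 41420 probe sets by the Benjamini-Hochberg method and a threshold of 0.05.

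Of the 9 retinoid probe sets, 1 rose (Aldh1a2), 1 fell (Rdh9) and 7 did not pass the test. Over the whole array 0.524% of probe sets passed, 0.314% upward and 0.210% downward. The median difference of the 9 was -0.10, against -0.0041 over all probe sets, and 4 differences were above 0 and 5 below. Both calls fell on the synthesis side, in opposite directions: of its 4 probe sets 1 rose, 1 fell and 2 did not pass (median -0.11). Both breakdown probe sets had positive differences and did not pass (0.31 and 1.36), and the 3 carrier probe sets did not pass (median -0.29). The groups did not overlap for 5 of the 9 probe sets (Aldh1a2, Cyp26a1 and Stra6 higher in d/d, Rdh9 and Rbp4 lower), against 14.1% of all probe sets (6.67% higher and 7.47% lower in d/d). An unadjusted p under 0.05 was reached by 4 of the 9, against 9.85% of all probe sets.

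**Figure D1:**
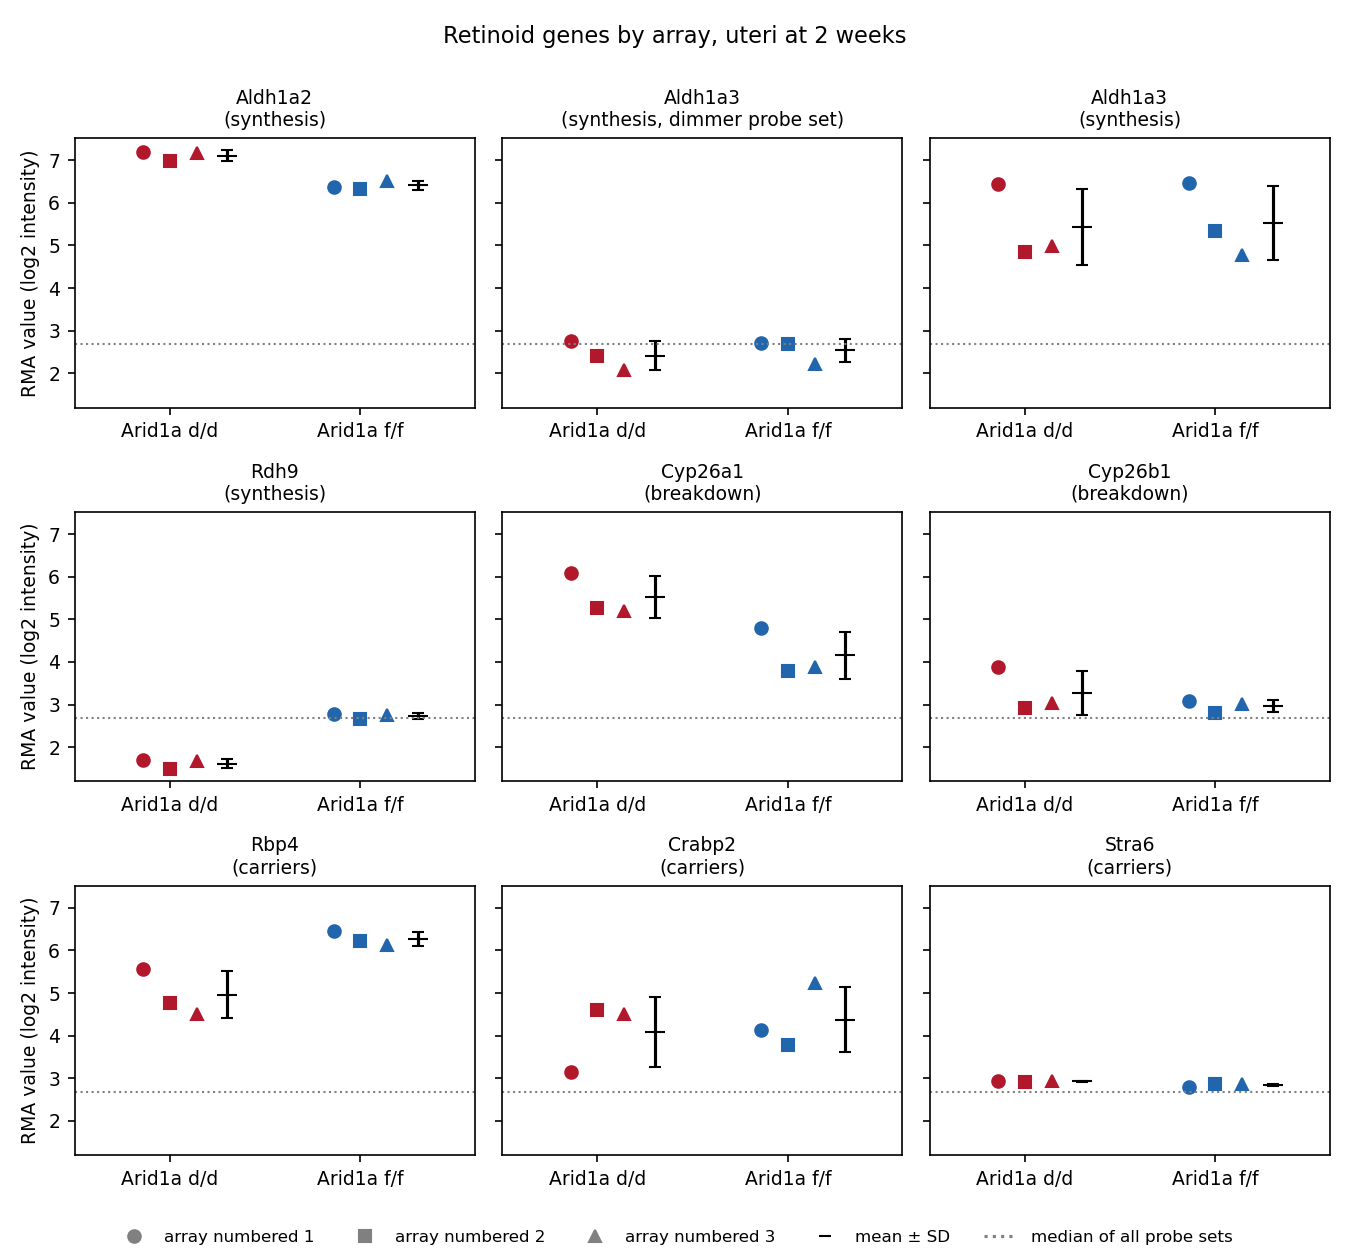
Log2 intensity of the 9 retinoid probe sets in each array, with d/d arrays on the left and f/f arrays on the right of each panel; marker shapes give the array number, bars the mean ± SD (n = 3) and the dotted line the median of all probe sets, 2.69. The d/d arrays lie above the f/f arrays for Aldh1a2 and Cyp26a1 and below them for Rdh9 and Rbp4, while the brighter Aldh1a3 probe set is highest in the array numbered 1 of each genotype.

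Aldh1a2, the retinal dehydrogenase that makes retinoic acid in embryonic mesoderm and in the stroma of the reproductive tract, rose in d/d uteri. It measured 7.19, 6.97 and 7.17 in d/d 1, 2 and 3, against 6.38, 6.33 and 6.52 in f/f 1, 2 and 3. All d/d arrays lay above all f/f arrays, with a gap of 0.45 between the nearest arrays. The means were 7.11 ± 0.12 in d/d and 6.41 ± 0.10 in f/f (SD, n = 3 each), a difference of 0.70 ± 0.10 (SE; limma adjusted p = 0.0282; 95% interval 0.47 to 0.93), so that the d/d level was 1.63 times the f/f level. The call stood without d/d 1 (limma adjusted p = 0.0244) and was lost without any other array. The adjusted p was 0.0663 without d/d 2, 0.136 without d/d 3, 0.0932 without f/f 1, 0.142 without f/f 2 and 0.0916 without f/f 3. The difference stayed between 0.66 and 0.77. The adjustment depends on all probe sets, and the fit without d/d 1 gave 971 calls, against 37 to 105 without any other array. Before adjustment the limma p ran from 1.4e-04 without d/d 2 to 6.8e-04 without f/f 2, and was 3.5e-04 without d/d 1.

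Stromal markers differed between the genotypes in the direction opposite to Aldh1a2. The mean of 10 stromal markers was 9.57, 9.23 and 9.25 in d/d 1, 2 and 3, against 9.75, 9.67 and 9.81 in f/f 1, 2 and 3, and all 10 had negative differences, of which Thy1 passed. Within each genotype, however, the arrays had the same order by stromal mean as by Aldh1a2, with d/d 1 highest and d/d 2 lowest, and f/f 3 highest and f/f 2 lowest. The part of the stromal markers in the Aldh1a2 values was not tested. The mean of 7 genes listed as markers of mesothelium, the sheet of cells that covers the uterus, spanned 4.09 to 4.38 in d/d arrays. It spanned 4.08 to 4.25 in f/f arrays, and 0 of the 7 passed. Their summed linear intensity was 252 to 286 in d/d and 241 to 261 in f/f arrays. Most of it came from Wt1 alone, at 153 to 163 in d/d and 143 to 154 in f/f arrays, so the sum mainly follows 1 gene. In these bulk samples more cells of a type and more RNA per cell cannot be told apart.

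Rdh9, a short-chain dehydrogenase of the retinol dehydrogenase family also known as Crad3, fell in d/d uteri. It measured 1.70, 1.48 and 1.67 in d/d 1, 2 and 3, against 2.79, 2.66 and 2.76 in f/f 1, 2 and 3. The genotypes were separated by 0.96 while arrays of 1 genotype lay within 0.22 of each other. The means were 1.62 ± 0.12 in d/d and 2.73 ± 0.07 in f/f (SD, n = 3 each), a difference of -1.12 ± 0.09 (SE; limma adjusted p = 0.00483), or 2.17-fold lower in d/d. The call stood without each of the 6 arrays, with adjusted p of 0.00274 to 0.0373. The f/f level stood at the median of all probe sets, 2.69, and the d/d level below it, where background limits the fold. The probe set carries the suffix _s_at, which Affymetrix gives where probes can match transcripts of several genes, so signal from Rdh9 and from close relatives cannot be told apart.

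Rdh9 lies on mouse chromosome 10 in a row of related dehydrogenase genes in RefSeq's table (GRCm38.p6). Of the relatives in that row, Rdh1 averaged 1.47 in d/d and 1.69 in f/f (difference -0.22), Rdh16 1.36 and 1.38 (-0.022) and Rdh16f2 1.63 and 1.71 (-0.085), while Rdh7 had a difference of 0.046. All 4 lay below 2.69 in both genotypes and did not pass, so a fall of the size seen for Rdh9 could not be measured on them. Of 11 protein-coding genes around Rdh9 in the table, 9 were measured and 0 of these passed with limma, against 0.524% of all probe sets. Their differences ran from -0.27 to 0.046. Most of the 9, these relatives among them, lay below 2.69 in both genotypes, where a fall could hardly show.

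Aldh1a3, the retinal dehydrogenase found in several epithelia, did not pass with either probe set. The brighter one measured 6.45, 4.84 and 4.997 in d/d 1, 2 and 3, against 6.47, 5.33 and 4.79 in f/f 1, 2 and 3. The highest value of each genotype came from its array numbered 1, and the genotypes overlapped over nearly their whole range. The difference was -0.10 ± 0.50 (SE; limma adjusted p = 0.973), with a 95% interval from -1.26 to 1.06, so these arrays leave room for a change of more than the size found for Aldh1a2 in either direction. The dimmer probe set averaged 2.41 ± 0.34 in d/d and 2.54 ± 0.27 in f/f (SD, n = 3 each), below 2.69 in both genotypes, with a difference of -0.13.

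Cyp26a1, the enzyme that removes retinoic acid and whose promoter is shown above, had the largest positive difference of the 9 probe sets and did not pass. It measured 6.09, 5.26 and 5.20 in d/d 1, 2 and 3, against 4.79, 3.78 and 3.89 in f/f 1, 2 and 3. All d/d arrays lay above all f/f arrays by at least 0.41, and within each genotype the array numbered 1 was the highest. The means were 5.52 ± 0.50 in d/d and 4.15 ± 0.55 in f/f (SD, n = 3 each), a difference of 1.36 ± 0.31 (SE; limma adjusted p = 0.136), with a d/d level 2.57 times the f/f level. Without both arrays numbered 1 the difference was 1.39 and passed (limma adjusted p = 0.00625). That fit gave 657 calls over all probe sets, against 217 with all arrays. Over all 17 other settings the adjusted p ran from 0.00336 to 0.418 and the difference from 1.08 to 1.68, and 2 of the 17 passed.

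Epithelial markers moved in the same direction as Cyp26a1. The mean of 7 markers of simple epithelium was 8.45 to 8.58 in d/d and 7.94 to 8.12 in f/f arrays, with a median difference of 0.61 and 6 of 7 positive, of which Cdh1 passed. Their summed linear intensity was 3877 to 4097 in d/d and 2537 to 3143 in f/f arrays. The part of this in the Cyp26a1 values was not tested. Within the d/d arrays Cyp26a1 was highest in d/d 1 and the epithelial mean was highest in d/d 2 (8.58, against 8.52 in d/d 1).

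Cyp26b1, the other retinoic acid hydroxylase, measured 3.87, 2.91 and 3.05 in d/d 1, 2 and 3, against 3.08, 2.80 and 3.02 in f/f 1, 2 and 3. Only d/d 1 stood above the f/f arrays. The difference was 0.31 ± 0.23 (SE; limma adjusted p = 0.752), and without d/d 1 it was 0.015.

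**Figure D2:**
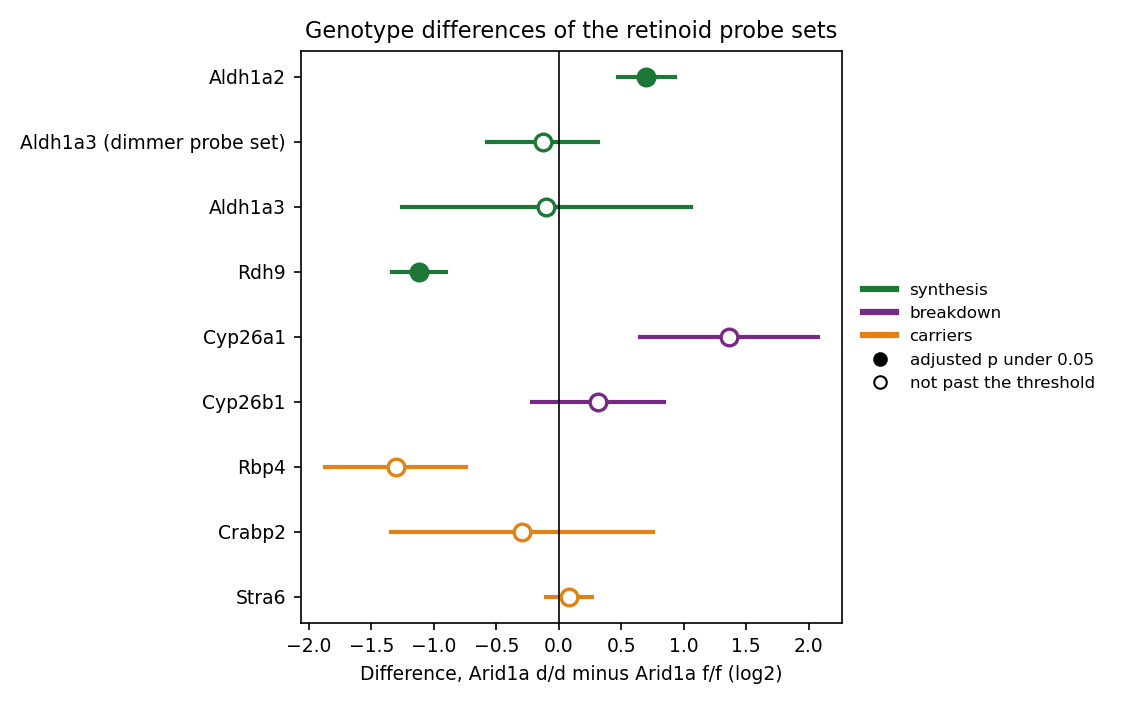
Difference between d/d and f/f uteri for each retinoid probe set (log2, d/d minus f/f), with its 95% interval, coloured by role; filled points passed an adjusted p of 0.05. Aldh1a2 at 0.70 and Rdh9 at -1.12 passed, Cyp26a1 at 1.36 and Rbp4 at -1.31 did not, and the intervals of the other 5 probe sets include 0.

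Rbp4, the retinol carrier of plasma that is made by liver and also by fat cells, had a negative difference that did not pass. It measured 5.58, 4.77 and 4.52 in d/d 1, 2 and 3, against 6.45, 6.22 and 6.12 in f/f 1, 2 and 3. The highest d/d array, d/d 1, stayed 0.54 under the lowest f/f array. The means were 4.96 ± 0.55 in d/d and 6.26 ± 0.17 in f/f (SD, n = 3 each), a difference of -1.31 ± 0.25 (SE; limma adjusted p = 0.0753), or 2.47-fold lower in d/d. Without d/d 1 the difference was -1.62 and passed (limma adjusted p = 0.00205). That fit gave 971 calls over all probe sets, against 217 with all arrays. Over all 17 other settings the adjusted p ran from 0.00205 to 0.317, and 6 of the 17 passed. Among these 6 is the looser threshold of 0.10, where the limma adjusted p was the same 0.0753.

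Fat cell markers were lower in the same arrays. The mean of 7 markers was 4.65, 3.78 and 4.02 in d/d 1, 2 and 3, against 5.03, 4.87 and 5.49 in f/f 1, 2 and 3, and their summed linear intensity was 204 to 495 in d/d and 604 to 942 in f/f arrays. All 7 had negative differences, with a median of -1.16, and 1 of their 10 probe sets passed. It was a dim one of Fabp4, a fatty acid carrier, at 2.07 in d/d and 2.61 in f/f uteri, both under 2.69 (limma adjusted p = 0.0314). The brightest Fabp4 probe set averaged 7.29 in d/d and 8.49 in f/f uteri and did not pass (limma adjusted p = 0.213). Adipoq, the adiponectin gene, averaged 6.15 in d/d and 7.74 in f/f uteri and did not pass either (limma adjusted p = 0.135). Within each genotype the orders differed: d/d 3 had the lowest Rbp4 value and d/d 2 the lowest fat mean, and f/f 3 had the lowest Rbp4 value and the highest fat mean. Endothelial markers were lower too, with means of 6.24 to 6.74 in d/d and 6.995 to 7.14 in f/f arrays and 0 of 5 past the test. The part of these markers in the Rbp4 values was not tested.

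Crabp2, the carrier that brings retinoic acid to the nuclear receptors, measured 3.15, 4.60 and 4.50 in d/d 1, 2 and 3, against 4.13, 3.78 and 5.23 in f/f 1, 2 and 3. The spread within a genotype exceeded the difference between them, -0.29 ± 0.46 (SE; limma adjusted p = 0.901; 95% interval -1.34 to 0.75). The direction turned without d/d 1 (0.17) and without f/f 3 (0.13). Stra6, the membrane receptor for Rbp4, measured 2.94, 2.91 and 2.93 in d/d 1, 2 and 3, against 2.81, 2.87 and 2.86 in f/f 1, 2 and 3. The groups did not overlap, but by a gap of 0.043 at a level near the median of all probe sets. Its difference was 0.082 ± 0.079 (SE; limma adjusted p = 0.824), and its 95% interval of -0.10 to 0.26 was the narrowest among the 9.

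**Figure D3:**
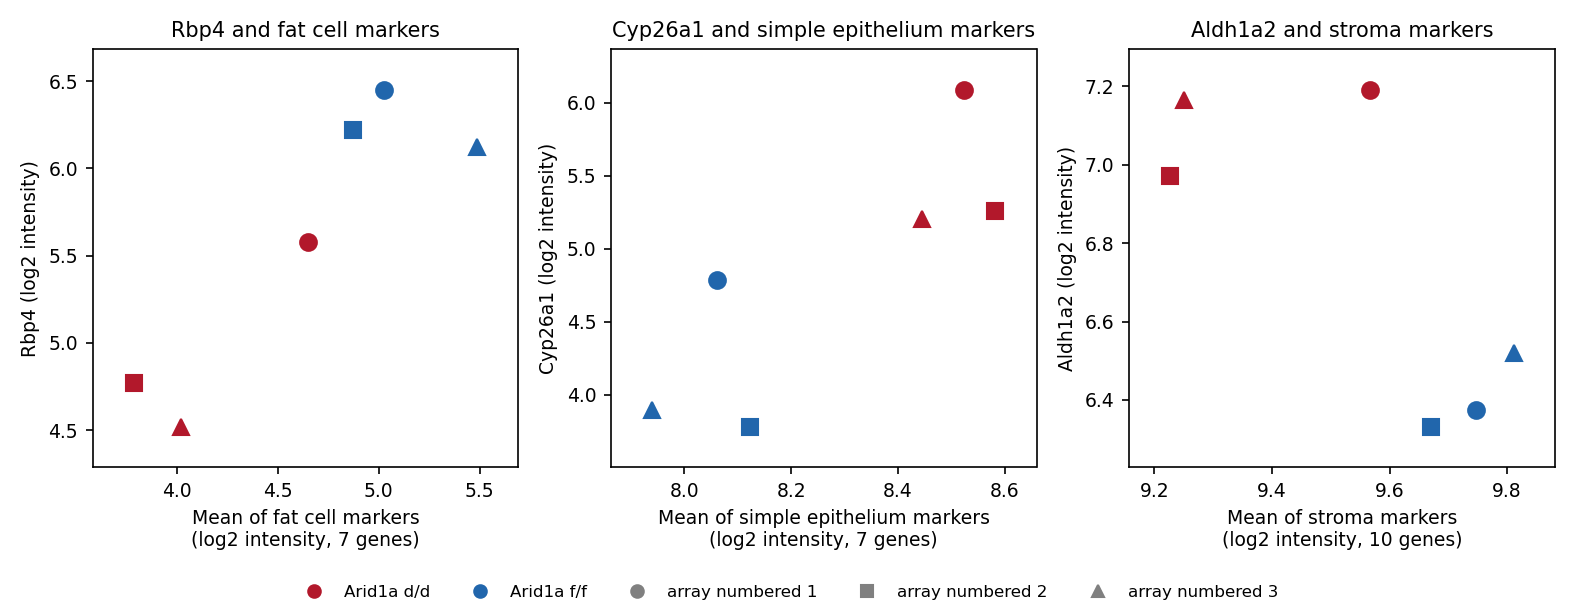
Log2 intensity of Rbp4, Cyp26a1 and Aldh1a2 in each array against the mean of fat cell, simple epithelium and stroma markers; red marks d/d and blue f/f arrays, and shapes give the array number. Between the genotypes, d/d arrays have lower Rbp4 and fat markers, higher Cyp26a1 and epithelial markers, and higher Aldh1a2 with lower stromal markers, whereas within each genotype Aldh1a2 and the stromal mean put the arrays in the same order; the 6 points of each panel share arrays and genotype, so no correlation is drawn from them.

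Rbp4 and Cyp26a1 lie close to each other on mouse chromosome 19, with 3 protein-coding genes between them in RefSeq's table (GRCm38.p6). The 3 are Myof, Cep55 and Ffar4, whose differences were 0.0019, 0.25 and 0.20. With limma 0 of the 3 passed, against 0.524% of all probe sets. Ffar4 averaged 1.85 in d/d and 1.65 in f/f, below the median of all probe sets. Cyp26a1 and Rbp4 themselves did not pass and had differences of opposite sign. The cause was not tested.

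The rest of the pathway was read from lists of 78 genes, of which 61 were measured by 107 probe sets. With limma, 0 of the 61 genes had a probe set past the test in either direction. In a separate fit of the brightest probe set per gene, adjusted over genes, 0 of them passed as well, against 1.14% of all genes. An unadjusted p under 0.05 by the brightest probe set was reached by 17 of the 61, against 12.6% of all genes. By that probe set 21 differences were above 0 and 40 below (46.6% of all genes were above 0), with a median of -0.077 against -0.011 over all genes, and the groups did not overlap for 15, of which 13 were lower in d/d, against 16.5% of all genes (9.42% lower). Both genotypes lay below 2.69 for 24 of the 61.

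Among 19 enzymes acting on retinol and retinal, 13 differences were negative. Rdh10, the main retinol dehydrogenase of the mouse embryo, measured 7.06, 6.53 and 6.81 in d/d 1, 2 and 3, against 7.63, 7.27 and 7.25 in f/f 1, 2 and 3. All its d/d values lay below all its f/f values, and its other probe set had the same separation. The differences of the brighter and dimmer probe set were -0.58 ± 0.16 and -0.64 ± 0.20 (SE; limma adjusted p of 0.219 and 0.310). Dhrs3, a reductase that turns retinal back into retinol, stood at -0.53 ± 0.13 (SE; limma adjusted p = 0.155) and Dhrs7 at -0.36. Without d/d 1 the dimmer Rdh10 probe set fell by 0.88 (limma adjusted p = 0.0175), while the brighter one did not pass. That fit gave 971 calls over all probe sets, against 217 with all arrays. No gene of the wider lists passed without any other single array.

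Among 6 other carriers, Crabp1, a cytoplasmic carrier of retinoic acid, measured 2.85, 3.97 and 4.15 in d/d 1, 2 and 3, against 4.24, 4.41 and 5.76 in f/f 1, 2 and 3. The genotypes did not overlap, but the nearest arrays, d/d 3 and f/f 1, were close, and the difference of -1.15 ± 0.45 (SE) had a limma adjusted p of 0.442. Ttr, which carries Rbp4 in plasma, stood at -0.14 and Stra6l, a receptor for Rbp4, at -0.19. Stra6l lay below 2.69 in both genotypes. Of 9 genes of storage and uptake, Lpl, a lipase, stood at -0.57 and Scarb1, a receptor that takes up lipids and carotenoids, at -0.44. Rpe65, an isomerase of the eye, stood at 0.21. Of the 9, 5 lay below 2.69 in both genotypes, Rpe65 among them. In the fit without d/d 1, with its 971 calls over all probe sets, the brighter Scarb1 probe set fell by 0.65 (limma adjusted p = 0.0455). The dimmer one did not pass. The 2 other breakdown genes measured, Cyp3a13 and Cyp2s1, stood at 0.47 and -0.14, and Cyp3a13 lay below 2.69 in both genotypes.

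Of 9 receptors and coregulators, 0 passed, and the differences ran from -0.40 for Ppard, a nuclear receptor that can bind retinoic acid, to 0.33 for Ncoa2, a coactivator. Nrip1, a corepressor, stood at -0.24. Rarb, whose promoter is shown beside that of Cyp26a1, measured 2.98, 2.90 and 2.78 in d/d 1, 2 and 3, against 2.70, 2.77 and 2.86 in f/f 1, 2 and 3. The genotypes overlapped at a level near the median of all probe sets. The Rarb difference was 0.11 ± 0.09 (SE; limma adjusted p = 0.793), with a 95% interval of -0.10 to 0.32, whereas that of Cyp26a1 was 0.65 to 2.07.

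Of 20 measured genes known to respond to retinoic acid, 14 had negative differences and 0 passed (median -0.076). Dhrs3, which retinoic acid induces in many tissues, is in this list as well as among the enzymes above. Tgm2, a transglutaminase, had 5 probe sets with differences of -0.57 to -0.36, all with d/d arrays below f/f arrays. The lowest of their limma adjusted p was 0.0753. The dimmest of the 5 averaged 1.56 in d/d and 1.95 in f/f, below 2.69 in both genotypes. All 5 measure the same gene, so they do not count as independent results. Rarres1 stood at -0.29, below 2.69 in both genotypes. Cyp26a1 and Dhrs3, both known targets of retinoic acid, had differences of opposite sign (1.36 and -0.53), and neither passed. The cause was not tested.

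**Figure D4:**
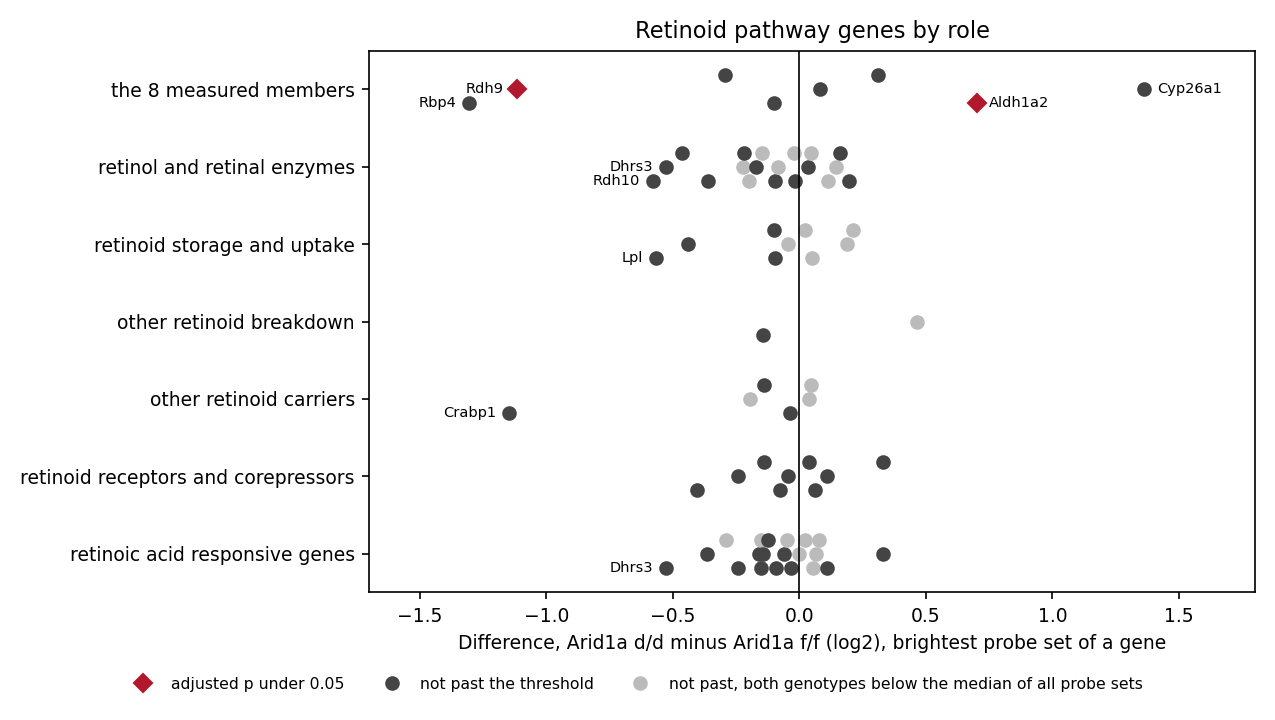
Difference between d/d and f/f uteri (log2, d/d minus f/f) for the brightest probe set of each of the 8 measured retinoid genes and of 61 further pathway genes by role; red diamonds passed an adjusted p of 0.05, and grey points had both genotypes under 2.69. The 2 diamonds are Rdh9 and Aldh1a2, and 40 of the 61 further genes lie left of 0.

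Genes with the most similar profile over the 6 arrays were taken from 10565 named genes above the median of all probe sets, as a description with no test. Picking the highest r of so many genes over 6 arrays gives values near 1 by itself. The r also includes any difference between the genotypes. For Aldh1a2 they were Vwc2, Zmynd8 and Fggy (Pearson r of 0.988, 0.988 and 0.984), with differences of 1.45, 0.37 and 0.64. For Rbp4 they were Ppp1r12c, Ces1d and Atf6 (r of 0.997, 0.996 and 0.994), with differences of -0.49, -1.73 and -0.38. For Cyp26a1 they were Arrdc2, Afdn and Capg (r of 0.992, 0.992 and 0.991). The brighter Aldh1a3 probe set went with Cygb, Plxdc2 and Zfr (r of 0.9997, 0.998 and 0.996), whose differences lay between -0.054 and -0.041. For Cyp26b1 the genes were Faxc, Dtwd1 and Lyve1, for Crabp2 Erp29, Psmd8 and Hs6st2, and for Stra6 Epha1, Gucd1 and Syt9, all with r of 0.977 to 0.992 apart from Epha1 (0.995). Rdh9 was not included, as its mean lay below that median.

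**Figure D5:**
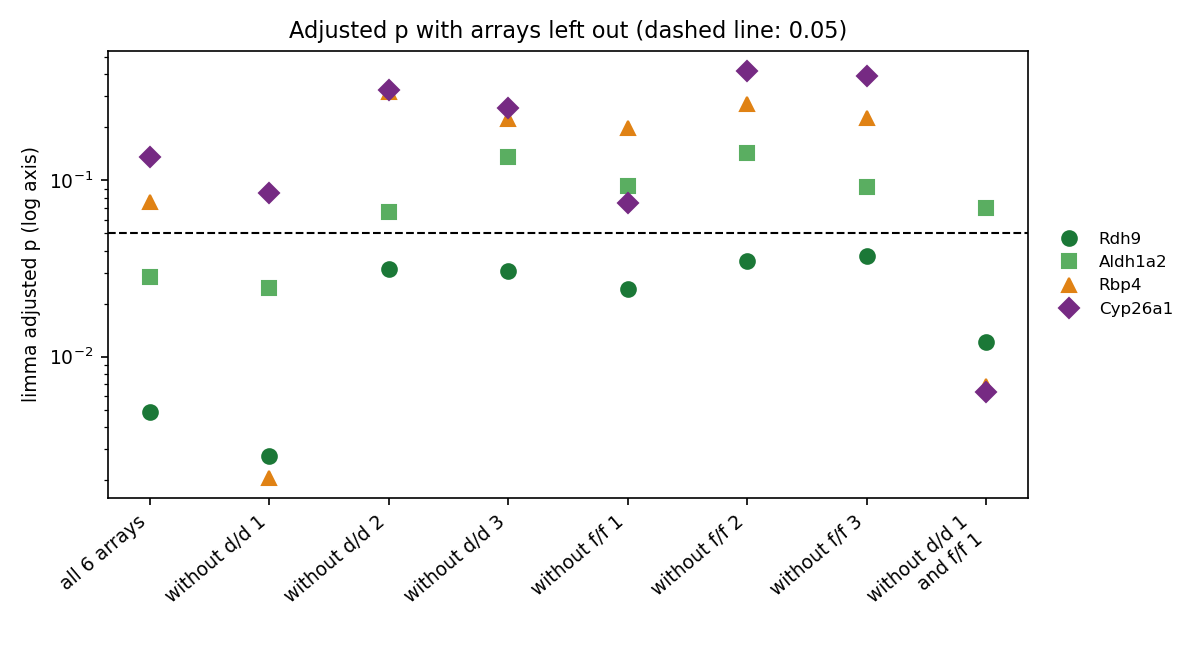
Limma adjusted p (log axis) of Rdh9, Aldh1a2, Rbp4 and Cyp26a1 with all 6 arrays, without each array in turn and without both arrays numbered 1; the dashed line marks 0.05. Rdh9 lies below the line in each of these fits, Aldh1a2 with all arrays and without d/d 1, Rbp4 without d/d 1 and without both arrays numbered 1, and Cyp26a1 without both arrays numbered 1.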

How the data were processed

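Labelled cRNA was prepared from 500 ng of total RNA per array, per the labels' protocols. Each probe set has 1 deposited intensity per array. The submitters' processing notes name RMA and no settings. Its values are linear, so log2 was taken with no added constant. RMA corrects background and compresses differences at the dim end. Detection calls were not used here. The array build was not given in the sources used here, and 0 columns of values were left out. Of 41420 probe sets, 31562 had exactly 1 symbol in the platform annotation, 830 had several and 9028 had none.

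Genotypes were tested in R 4.3.3 by lmFit and eBayes of limma 3.58.1 (2-sided, no covariate, 4 residual and 4.19 prior degrees of freedom), with Benjamini-Hochberg adjustment over all probe sets. The 95% intervals are not adjusted. Precision is limited by the number of arrays. The steps were tested on simulated data. The genes, lists and the rule for named genes (all members, up to 3 genes of smallest p per pathway list, and 3 most similar genes per member) were chosen with earlier results of these data known. Myof, Cep55, Ffar4, Rdh16, Rdh16f2, Rdh7, Rdh1, Rarb, Hoxa10, Hoxa11, Thy1 and Cdh1 were named outside that rule. Other settings were robust variance with an intensity trend, the replicate block, array weights, repeated quantile normalization, median centring, leaving out dim or _x_at probe sets, 1 value per gene, arrays left out and a looser threshold.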

Additional observations from a re-analysis of the deposited data

How the results depend on the processing

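Whether the numbers pair the arrays cannot be decided from so few arrays. For same-numbered arrays the correlation of deviations was 0.461, 0.0228 and 0.178. The first of these was the highest of all combinations, while d/d 2 matched best with f/f 3 (0.299). With the replicate block, 2 retinoid probe sets passed upward and 2 downward, against 1 and 1, as Cyp26a1 (adjusted p = 0.00336) and Rbp4 (0.0130) joined, and 2 wider pathway genes passed downward (Rdh10 and Tgm2), against 0. The block gave 574 calls over all probe sets, against 217. Rbp4 made the count of lower retinoid probe sets 2 under robust variance with an intensity trend, with array weights (329 calls in all), without both arrays numbered 1 (657) and at an adjusted p under 0.10 (462), and the last 2 settings each gave 1 lower wider gene (Rdh10 and Tgm2). Leaving out dim probe sets removed Rdh9, so 0 passed downward. With 1 array left out, higher retinoid probe sets ranged from 0 to 1, lower ones from 1 to 2, lower wider genes from 0 to 2 and all calls from 37 to 971. Reversals were limited to values that did not pass: the brighter Aldh1a3 probe set ranged from -0.61 to 0.37 with 1 array left out, the dimmer from -0.30 to 0.043 and Crabp2 from -0.59 to 0.17, and Crabp2 was 0.047 without both arrays numbered 1. Without them Aldh1a2 had an adjusted p of 0.0693. Apart from the looser threshold and the removal of Rdh9, the cause was not tested. Across the alternatives, 129 values of single probe sets kept direction and call, 8 gained and 6 lost the call, and 7 reversed.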
